A study of Mus musculus with 4 samples.

Results

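Double-negative Tc were taken as spleen T cells with RNA of the CD3 complex but without a single UMI (unique molecular identifier, 1 per captured RNA molecule) of either coreceptor. A cell was kept if it had at least 500 genes, at least 2500 gene UMIs and at most 10% mitochondrial UMIs. It was a member if the UMIs of Cd3d, Cd3e and Cd3g together reached 2 and if Cd4, Cd8a, Cd8b1 and Klf1, a transcription factor of erythroid cells, had none. Of 10454 kept cells, 5862 were Tc by this gate, and 331 of these were double-negative. The comparison classes were 3748 CD8+ Tc with at least 1 UMI of Cd8a or Cd8b1 and none of Cd4, and 1553 CD4+ Tc with at least 1 UMI of Cd4 and none of Cd8a or Cd8b1. The remaining 230 Tc had UMIs of both coreceptors. The members were thus chosen by the measured UMIs of 7 genes, so that the levels of these genes are a description of the cells and not a result.

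The mice had received lethal total body irradiation, 10000 WEHI-3B cells (a mouse myelomonocytic leukemia line), donor bone marrow and, on day 2, 200000 splenic donor Tc. Both groups carried floxed alleles of Havcr2, the gene of the inhibitory receptor TIM-3. In 2 libraries the genotype was Havcr2fl/fl;E8icre/+, in which E8i-driven Cre is meant to delete the gene in CD8+ cells, and in the other 2 it was Havcr2fl/fl, the floxed control without Cre. Spleen Tc were collected on day 23 with a pan-T isolation kit, stained with an oligonucleotide-tagged antibody to the donor molecule H-2Kb, and sequenced with 10x 3′ chemistry, with 1 library per mouse. The Havcr2fl/fl;E8icre/+ libraries (replicates 1 and 2) held 107 and 107 double-negative Tc, and the Havcr2fl/fl libraries held 36 and 81. Their summed UMIs were 607797, 635441, 355216 and 378573 in the same order, in which the values of the 4 libraries are given throughout. The donor tag had a median of 1778 UMIs in double-negative Tc, 1681 in CD8+ Tc and 1888 in CD4+ Tc, and 1 double-negative cell fell under its lower limit. The tag did not set Tc apart from other cells, since cells without a Cd3 UMI had a median of 2896. No double-negative cell shared its barcode with a kept cell of another library.

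CD4 and CD8 are the coreceptors with which the αβ T cell receptor (TCR) recognizes MHC class II and class I. Mature Tc that carry neither protein are a small part of peripheral Tc and include γδ Tc, part of the invariant natural killer T (NKT) cells and αβ Tc described in autoimmunity and after transplantation. A cell without coreceptor RNA in a droplet assay need not lack the protein, because Cd4 in particular is captured with few UMIs. In the mouse, Cd4 lies on chromosome 6 from 124864692 to 124888221 (GRCm38, minus strand), and Cd8a on the same chromosome from 71373427 to 71379173 (plus strand).

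Double-negative Tc were shallower than both other classes in the pooled cells and in 3 of 4 libraries. Their median depth was 3907 UMIs, against 5254.5 in CD8+ Tc and 4849 in CD4+ Tc, and their median sum of Cd3 UMIs was 12, against 21 and 17. By library the median depth was 3586, 4510.0, 5356.5 and 3571 UMIs in double-negative Tc, 4950.5, 6210.0, 7141 and 3700.0 in CD8+ Tc and 4050.5, 5374, 5632 and 3503.5 in CD4+ Tc, so that in Havcr2fl/fl replicate 2 double-negative Tc were slightly deeper than CD4+ Tc and close to CD8+ Tc. Of Tc with 2500 to under 3500 UMIs, 9.25% were double-negative (112 of 1211, 95% Wilson interval 7.74 to 11.01), and the share was 6.96% from 3500 UMIs, 3.72% from 5000, 3.34% from 7500 and 1.79% from 10000 to under 20000 (10 of 558, interval 0.976 to 3.27). Among the 115 Tc with 20000 or more UMIs it was 8.70% (10 cells, interval 4.79 to 15.3). The share thus fell over 5 steps of depth in the pooled cells and was higher again in the deepest cells. Of the 10 deepest double-negative cells, however, 7 were high in RNA of myeloid marker genes (described below). The part of these cells in the higher share was not tested. In Havcr2fl/fl replicate 2 the share did not fall in this way and was 7.18% in the shallowest and 8.33% in the fourth step. All intervals of shares cover counting error only.

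**Figure D1:**
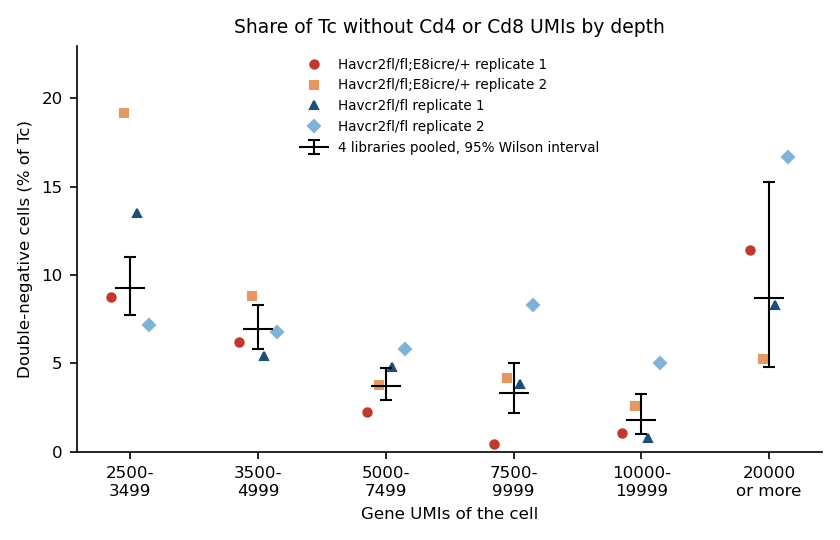
Share of Tc without Cd4, Cd8a or Cd8b1 UMIs (y axis, % of the Tc in the bin) by the number of gene UMIs of the cell (x axis). Colored points are the 4 libraries, and black marks are the pooled share with its 95% Wilson interval. The pooled share went from 9.25% in the shallowest to 1.79% in the next-to-deepest bin and was 8.70% above it. Of the 10 double-negative cells in the deepest bin, 7 were high in myeloid marker RNA.

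The loss of coreceptor RNA at low depth was measured by drawing 2500 UMIs from each cell without replacement. After this thinning, 336 of 1553 CD4+ Tc (21.6%, interval 19.7 to 23.8) and 179 of 3748 CD8+ Tc (4.78%, interval 4.14 to 5.51) had no coreceptor UMI left. Among cells that started with at least 5000 UMIs, these shares were 30.9% and 6.66%. In the 4 libraries, 18.3%, 24.6%, 24.7% and 17.6% of CD4+ Tc and 5.45%, 4.98%, 4.03% and 3.85% of CD8+ Tc lost their coreceptor in this way, so that the loss was larger for CD4+ Tc in each library. Just outside the gate stood 405 cells with exactly 1 Cd4 UMI and 127 with exactly 1 UMI of Cd8a or Cd8b1. From the cells with 1 and with 2 UMIs, the Chao1 formula gave a lower bound of the cells with 0 UMIs. This bound was 228 cells beside the CD4+ Tc and 48.9 beside the CD8+ Tc, 277 in sum, where 331 double-negative Tc were counted. Per library this sum was 108, 82.8, 24.3 and 74.0, beside 107, 107, 36 and 81 counted cells. Being lower bounds, these sums do not tell how many of the counted cells lack coreceptor RNA. On the CD3 side of the gate, 19 members had 2 Cd3 UMIs, 1 had 3 and 311 had 4 or more, and 112 cells without coreceptor or Klf1 UMIs had 1.

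For the comparison at equal depth, the thinned UMIs were summed per library and class, and 8043 genes were tested with edgeR's quasi-likelihood test with the mouse as a block. Levels below are CPM (UMIs of the gene scaled to a common library size) of these sums after TMM scaling, and differences are log2 fold changes with their standard error. Adjusted p-values are Benjamini-Hochberg values over all tested genes. The double-negative sums enter both comparisons, which are therefore not independent of each other. In bulk sums, fewer cells that express a gene and less RNA per cell cannot be told apart.

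Compared with CD8+ Tc, double-negative Tc had low levels of the genes of cytotoxic CD8+ Tc and high levels of genes of the CD4+ lineage and of naive or memory Tc. Of the tested genes 674 (8.38%) were called with adjusted p under 0.05, of which 368 (4.58%) were higher and 306 (3.8%) were lower in double-negative Tc. Of the 12 genes on a list of the CD8 lineage, 9 fell, 1 rose and 2 did not pass, with a median log2 fold change of -1.86 where the median of all tested genes was -0.01. Without the mouse as a block 336 genes were called, and 251 in cells with at least 5000 UMIs. Ccl5, a chemokine of effector CD8+ Tc, was at 8838, 3945, 7085 and 1800.3 CPM in double-negative Tc and at 19989, 16881, 19277 and 20084 CPM in CD8+ Tc. Its difference was -1.98 ± 0.19 (adjusted p = 2.96e-08), and the classes did not overlap. Runx3, the transcription factor that silences Cd4 in the CD8 lineage, was at 203, 162, 127 and 130.1 CPM against 434, 443, 462 and 368 CPM (-1.36 ± 0.14, adjusted p = 5.50e-08). Cd160, an NK and CD8+ Tc receptor, was at 21.7, 18.8, 0 and 41.6 CPM against 251, 296, 308 and 301 CPM (-3.61 ± 0.26, adjusted p = 6.37e-11).

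All 9 tested genes of the 12 on a list of the CD4 lineage rose against CD8+ Tc (median log2 fold change 2.20). Tnfrsf4, the gene of the costimulatory receptor OX40, was at 246, 516, 299 and 609 CPM in double-negative Tc against 51.5, 76.0, 51.9 and 89.2 CPM in CD8+ Tc (2.63 ± 0.14, adjusted p = 3.34e-13). Zbtb7b, which encodes ThPOK, the factor that commits thymocytes to the CD4 lineage, was at 47.0, 75.4, 104 and 26.02 CPM against 11.6, 15.7, 11.6 and 10.1 CPM (2.20 ± 0.29, adjusted p = 3.64e-06). The genes of the costimulatory receptor ICOS and of CD40 ligand were higher by 1.43 ± 0.14 (Icos, adjusted p = 2.87e-08) and 3.05 ± 0.46 (Cd40lg, adjusted p = 2.98e-05). Each of these genes was higher in double-negative than in CD8+ Tc of the same mouse in 4 of 4 mice.

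The list of naive and stem-like genes rose as well, with 10 of 10 genes called and a median log2 fold change of 1.40. Il7r, the receptor chain for the survival cytokine IL-7, was at 745, 739, 1001 and 624 CPM in double-negative Tc against 140.1, 188, 303 and 113 CPM in CD8+ Tc (2.15 ± 0.11, adjusted p = 2.05e-13). Tcf7, the gene of TCF-1, a factor of stem-like Tc, was higher by 1.31 ± 0.14 (adjusted p = 1.68e-07). On the cytotoxic list, 6 of 9 tested genes fell and Klrg1 rose. Gzma (granzyme A) was at 61.5, 147, 0 and 421 CPM against 1346, 845, 502 and 3211 CPM (-3.46 ± 0.33, adjusted p = 1.92e-08), and Prf1 (perforin) was lower by -3.25 ± 0.27 on the log2 scale (adjusted p = 1.82e-09). Of 9 exhaustion genes 7 fell, among them Pdcd1, Lag3, Tox and Havcr2, and 3 of 12 cell cycle genes fell (Mki67, Stmn1 and Hist1h1b), while none of the 8 tested interferon response genes was called.

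The 10 largest rises against CD8+ Tc that were shared by all 4 mice were those of Ccl1, Gm14718, Foxp3, A630023P12Rik, Sdc4, Itgae, Igfbp4, Il2ra, Pmepa1 and Dhrs3. They ranged from 3.44 (Dhrs3) to 6.15 (Ccl1). Ccl1, a chemokine gene, stood at 557, 15.1, 11.5 and 41.6 CPM in double-negative Tc, so that its level rested on Havcr2fl/fl;E8icre/+ replicate 1, whereas CD8+ Tc had 0.554 to 4.95 CPM. The 10 largest falls were those of Glp1r, Gm44175, Tff1, Slc16a11, Cd244a, Bend4, Sept4, Nr4a2, Cd160 and Gzma. Glp1r, the gene of the receptor for glucagon-like peptide 1, was at 81.4, 22.0, 21.5 and 82.5 CPM in CD8+ Tc and had no UMI in the thinned double-negative Tc. Against a floor of 3 UMIs over the whole group this was at least 15.9-fold lower.

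The difference from CD4+ Tc was small by comparison. Of the same 8043 genes 54 (0.671%) were called, of which 33 (0.41%) were higher and 21 (0.261%) were lower in double-negative Tc. None of the 12 genes of the CD8 lineage list and none of the 12 of the αβ TCR list was called, and of the CD4 lineage list Igfbp4 rose, Tnfsf8 fell and 7 did not pass (median -0.15). Runx3 differed by -0.05 ± 0.16, Zbtb7b by 0.07 ± 0.25, Icos by -0.19 ± 0.13 and Il7r by 0.28 ± 0.10, none of them past the threshold (adjusted p from 0.402 to 0.989). Without the mouse as a block no gene was called. At an unadjusted p under 0.05 there were 386 of 8043, no more than this threshold passes without any difference. On unthinned UMIs 584 genes were called (358 higher and 226 lower), and without the filter on low counts 167. With the comparison restricted to CD4+ Tc with exactly 1 Cd4 UMI, 9 of 5010 tested genes were called, all higher (S100a8, S100a9, Camp, Chil3, Lcn2, Lyz2, Prss34, Prtn3 and Mpo, which are genes of granulocytes and their precursors).

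**Figure D2:**
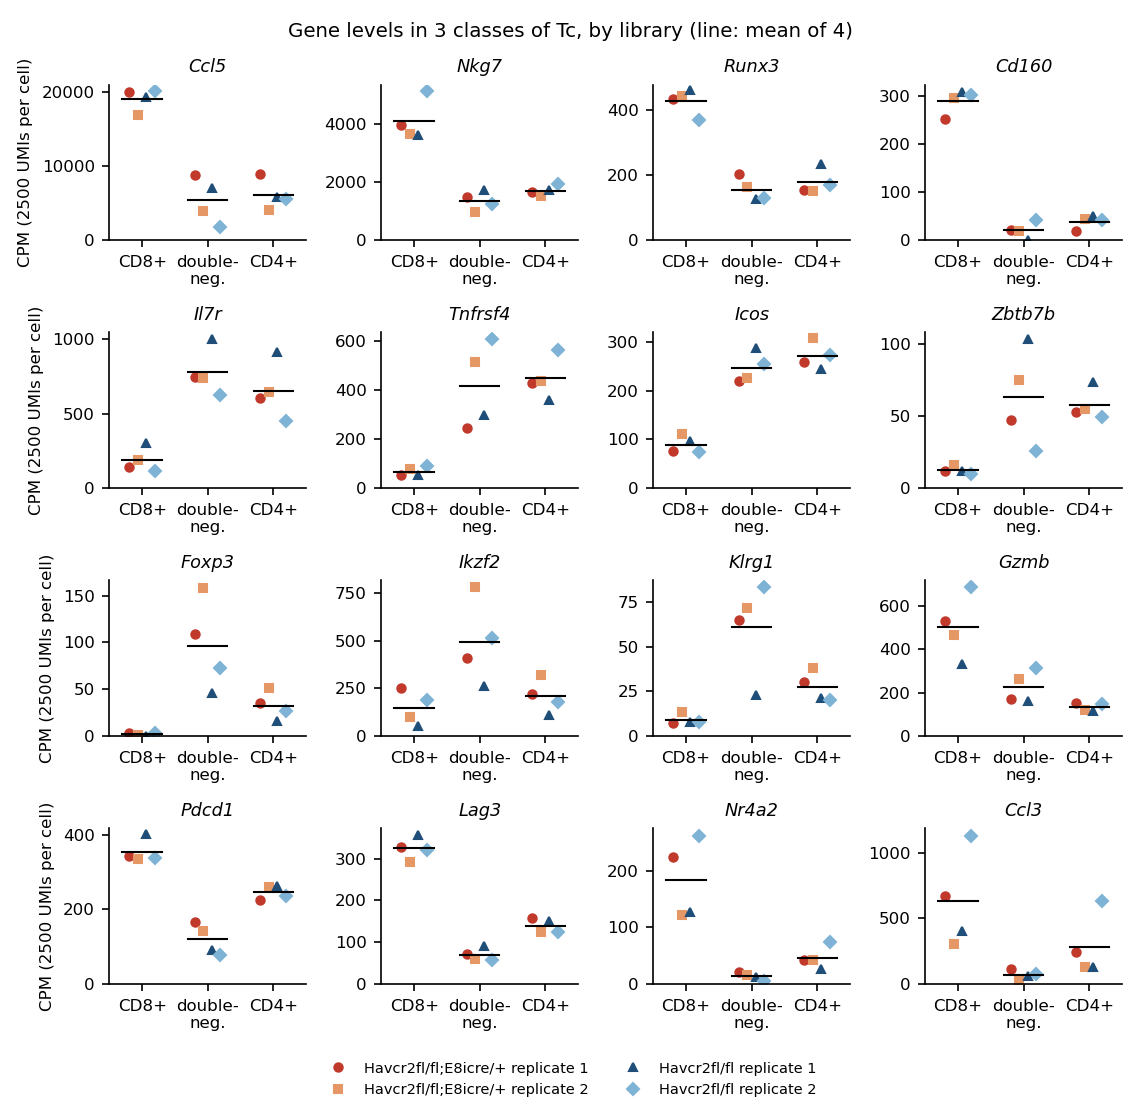
Levels of 16 genes in CD8+, double-negative and CD4+ Tc (y axis, CPM of cells thinned to 2500 UMIs, each panel from 0). Points are the 4 libraries and lines their mean. In each of the 4 mice double-negative Tc lay below CD8+ Tc for Ccl5, Nkg7, Runx3 and Cd160 and above them for Il7r, Tnfrsf4, Icos and Zbtb7b, and they lay above CD4+ Tc for Foxp3, Ikzf2, Klrg1 and Gzmb and below them for Pdcd1, Lag3, Nr4a2 and Ccl3.

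A lineage score placed each cell between the CD8+ and the CD4+ class. A logistic model was fitted to CD8+ and CD4+ Tc of 3 libraries on 8310 genes without the genes of the gate, TCR and immunoglobulin variable genes, mitochondrial genes and sex genes, and was applied to the fourth library. It put 94.6% of CD8+ Tc on the CD8+ side and 86.2% of CD4+ Tc on the CD4+ side. The model knew no class but these, so that a cell of any other type also had to fall on a side. A place on the CD4+ side therefore does not identify a cell as a CD4+ Tc. Of the 331 double-negative Tc, 263 (79.5%) were on the CD4+ side. By library, this share was 75.7%, 77.6%, 83.3% and 85.2%, against 88.5%, 83.9%, 90.5% and 82.4% for CD4+ Tc. The score was between 0.3 and 0.7, near the cut of 0.5, for 45 double-negative cells (13.6%), and 68 (20.5%) were on the CD8+ side.

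**Figure D3:**
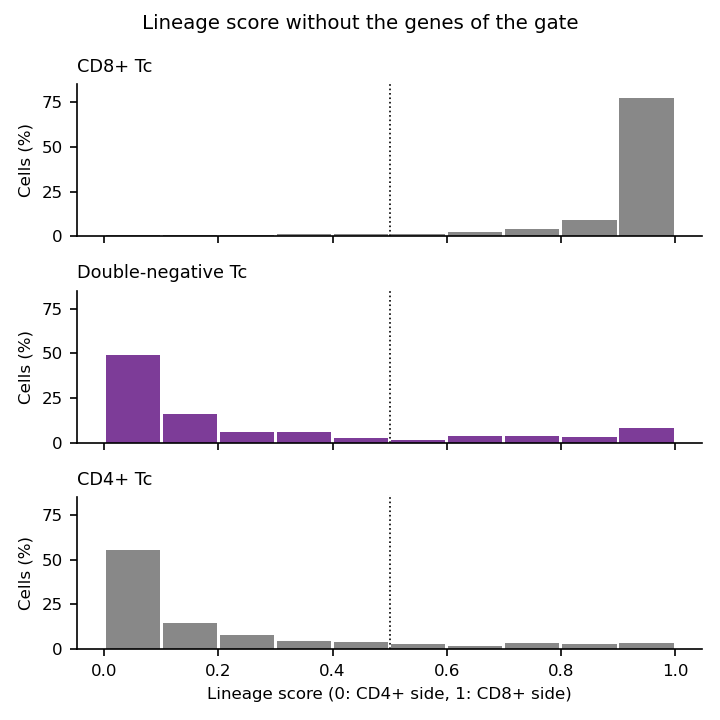
Distribution of the lineage score (x axis, 0 for the CD4+ side and 1 for the CD8+ side, in steps of 0.1) in the 3 classes (y axis, % of the cells of the class). The dotted line is the cut at 0.5. Double-negative Tc peaked at the CD4+ end with 49.2% of cells under 0.1, and 8.16% were at 0.9 or above.

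Foxp3 and Ikzf2, of the 7 tested genes on the list of regulatory Tc, were higher in double-negative than in CD4+ Tc. Foxp3, on chromosome X (7573644 to 7595245, GRCm38, plus strand), encodes the transcription factor that defines these cells. It was at 109, 158, 46.0 and 72.8 CPM in double-negative Tc, at 34.8, 51.8, 15.7 and 26.8 CPM in CD4+ Tc and at 3.32, 0.900, 0 and 2.88 CPM in CD8+ Tc. Double-negative Tc were highest in each of the 4 mice, although the lowest double-negative library overlapped the highest CD4+ library. The difference from CD4+ Tc was 1.57 ± 0.25 (adjusted p = 0.000559). Ikzf2, the gene of Helios, was at 409, 780.0, 265 and 515 CPM against 219, 323, 112 and 179 CPM (1.19 ± 0.24, adjusted p = 0.0121), and Klrg1, a receptor of terminally differentiated Tc, at 65.1, 71.6, 23.0 and 83.3 CPM against 30.4, 38.0, 21.0 and 20.1 CPM (1.15 ± 0.27, adjusted p = 0.0376). Itgae, the gene of the integrin CD103, was higher by 1.45 ± 0.36 and missed the threshold (adjusted p = 0.0599). On the whole regulatory T list of 8 genes, Foxp3 and Ikzf2 rose, Nrp1 (neuropilin-1) fell and 4 of the 7 tested did not pass, Il2ra, Ctla4, Tnfrsf18 and Il10 among them (median 0.35). The adhesion gene Epcam and the syndecan gene Sdc4 rose with them, by 1.32 ± 0.28 and 1.89 ± 0.44 (adjusted p = 0.0186 and 0.0376), as did Gzmb (granzyme B), by 0.73 ± 0.15 (adjusted p = 0.0156). Without the cells with a Foxp3 UMI in all classes, Epcam (0.97 ± 0.37, adjusted p = 0.454), Gzmb (0.59 ± 0.23, adjusted p = 0.513), Ikzf2 (0.93, adjusted p = 0.241) and Klrg1 (0.90, adjusted p = 0.804) were no longer called but kept their direction, Sdc4 did not pass the filter on low counts, and Tnfrsf4 was lower than in CD4+ Tc (-0.63 ± 0.14, adjusted p = 0.0172).

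At equal depth, 43 of 331 double-negative Tc (12.99%), 75 of 1553 CD4+ Tc (4.83%) and 13 of 3748 CD8+ Tc (0.347%) had a Foxp3 UMI, and 1 of 4025 cells without a Cd3 UMI. Without thinning, Foxp3 was seen in 52 double-negative Tc (15.7%), namely 12, 24, 3 and 13 per library. At equal depth, 92.3% of these cells had an Ikzf2 UMI, 53.8% an Il2ra UMI, 44.2% a Klrg1 UMI and 36.5% an Itgae UMI, whereas the shares in the 279 double-negative Tc without Foxp3 were 16.8%, 6.45%, 3.94% and 1.79%. The 94 CD4+ Tc with Foxp3 had 93.6%, 48.9%, 34.0% and 38.3% for the same 4 genes. Ctla4 was seen in 38.5% of double-negative Tc with and 13.3% of those without Foxp3, and in 54.3% of CD4+ Tc with Foxp3. Tcf7, by contrast, was seen in 1.92% of double-negative Tc with and in 31.5% of those without Foxp3. The lineage score placed all 52 Foxp3 cells on the CD4+ side, and 211 of the 279 double-negative Tc without Foxp3 (75.6%).

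In the pooled cells the share of Foxp3 cells fell with the number of Cd4 UMIs. Among Tc without Cd8 UMIs, it was 12.99% with no Cd4 UMI, 9.38% with 1 (38 of 405), 5.28% with 2, 5.09% with 3 and 0.780% with 4 or more (4 of 513). Pdcd1, the gene of the inhibitory receptor PD-1, ran the other way, with 21.1%, 26.9%, 33.6%, 37.1% and 46.0% of cells. Lag3, another inhibitory receptor gene, was seen in 14.5%, 17.3%, 18.9%, 24.4% and 30.4%. Single libraries did not follow each step. Foxp3, for example, was at 11.2%, 11.3%, 2.61%, 4.30% and 1.17% in Havcr2fl/fl;E8icre/+ replicate 1, and Pdcd1 at 13.9%, 27.9%, 25.9%, 24.3% and 54.6% in Havcr2fl/fl replicate 1. In each of the 4 libraries, the share at 0 Cd4 UMIs was above that at 4 or more for Foxp3 and below it for Pdcd1 and Lag3. Against CD4+ Tc with exactly 1 Cd4 UMI, the difference of double-negative Tc was 0.61 ± 0.34 for Foxp3, 0.58 ± 0.29 for Ikzf2, -0.33 ± 0.20 for Pdcd1 and -0.27 ± 0.23 for Lag3, none past the threshold (adjusted p from 0.955 to 0.962). The call of Foxp3 was also lost without the mouse as a block (1.58 ± 0.37, adjusted p = 0.315) and in cells with at least 5000 UMIs (0.91 ± 0.72, adjusted p = 0.769).

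**Figure D4:**
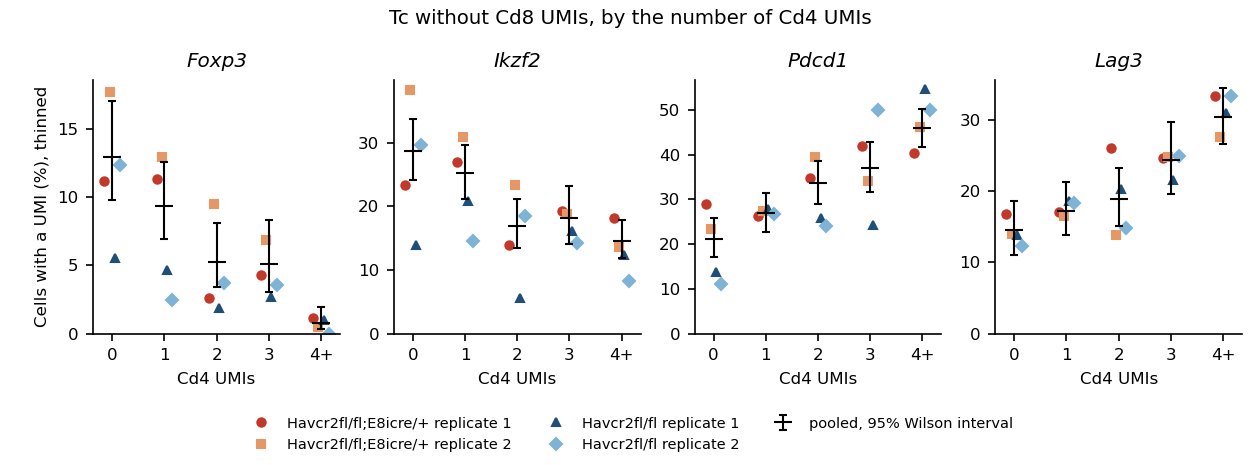
Share of Tc without Cd8 UMIs that had a UMI of Foxp3, Ikzf2, Pdcd1 or Lag3 at 2500 UMIs per cell (y axis, %) by the number of Cd4 UMIs before thinning (x axis, 0 being double-negative Tc). Colored points are libraries and black marks the pooled share with its 95% Wilson interval. Pooled Foxp3 shares went from 12.99% at 0 to 0.780% at 4 or more Cd4 UMIs, and Pdcd1 shares from 21.1% to 46.0%.

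The inhibitory receptor genes Pdcd1 and Lag3, the nuclear receptor gene Nr4a2 and the chemokine gene Ccl3 were lower in double-negative than in CD4+ Tc, whereas the chemokine genes Ccl5 and Ccl1 were not called (-0.25 ± 0.19 and 1.53 ± 0.58, adjusted p = 0.804 and 0.454). Pdcd1 was at 166, 143, 92.0 and 78.0 CPM against 226, 259.6, 262 and 237 CPM (-0.91 ± 0.16, adjusted p = 0.00161), and Lag3 at 72.4, 60.3, 92.0 and 57.2 CPM against 158, 125, 150.4 and 125 CPM (-1.05 ± 0.17, adjusted p = 0.000608). The classes did not overlap for either gene. Nr4a2, which TCR signals induce, differed by -1.70 ± 0.39 (adjusted p = 0.0345), and the chemokine gene Ccl3 by -1.94 ± 0.22 (adjusted p = 2.99e-06), with 112, 26.4, 57.5 and 72.8 CPM against 245, 128, 128 and 629 CPM. Of the 9 exhaustion genes these 3 (Pdcd1, Lag3 and Nr4a2) fell and 6 did not pass (median -0.91). The other large falls were those of Gcg, Nrgn, Igfbp7, Serpinb6b, Stat4 and Cxcr6. Gcg, the gene of proglucagon, was at 29.6, 15.1, 42.0 and 75.9 CPM in CD4+ Tc, where 33 thinned cells (41 without thinning) had a UMI of it, and had no UMI in double-negative Tc, which was at least 8.60-fold lower against the floor of 3 UMIs over the group.

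Other rises against CD4+ Tc were those of genes that are markers of myeloid cells, and most of their UMIs lay in few cells. The labels name a pan-T isolation kit, and the study describes the cells as sorted donor Tc. The study also excluded cells without CD3 after clustering. In the 4025 kept cells without a Cd3 UMI, the 10 myeloid marker genes summed to 23226, 22302, 58441 and 5324 CPM (unscaled). The source of the myeloid RNA in double-negative Tc was not tested. Of 10 myeloid marker genes, 8 were tested and 7 rose (Lyz2, Mpo, Elane, Prtn3, Ctsg, S100a8 and S100a9). S100a9, a calprotectin subunit of neutrophils, was at 767, 859, 11409 and 26.02 CPM in double-negative Tc against 18.5, 9.83, 423 and 4.46 CPM in CD4+ Tc (4.92 ± 0.39, adjusted p = 4.33e-09). Mpo, the myeloperoxidase gene, was at 184, 37.7, 92.0 and 72.8 CPM against 5.92, 5.24, 19.2 and 26.8 CPM (3.20 ± 0.39, adjusted p = 6.35e-06). The summed level of the list was 2478, 2221, 25189 and 869 CPM (unscaled) in double-negative Tc, with S100a8 the most abundant gene in 3 libraries and Cst3 in Havcr2fl/fl replicate 2. In double-negative Tc, 10 cells with 25 or more such UMIs of 2500 (Cst3 left out) held 95.2% of the UMIs of the list. By library such cells held 91.4%, 94.0%, 98.5% and 59.7%. These 10 cells were 4, 2, 2 and 2 per library, 6 of them had only 2 or 3 Cd3 UMIs, 7 had 20000 or more UMIs, and 7 had no UMI of Trac, Trbc1 or Trbc2. Scrublet called none of them a doublet. It called 0.0630%, 0.285%, 0.440% and 3.23% of the kept cells in the 4 libraries. In the first 3 it cannot be taken to have worked, so that the missing calls decide nothing there.

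Without the 16 double-negative Tc that were high in myeloid RNA or lacked TCR constant gene RNA, and without such cells of the other classes, 7 genes were higher and 15 lower than in CD4+ Tc. The 7 were Igha (3.56 ± 0.59, adjusted p = 0.00288), whose UMIs in all double-negative Tc were 0, 3, 0 and 112 and so lay almost wholly in Havcr2fl/fl replicate 2, Sdc4, Foxp3, Epcam, Ikzf2, Arl5a and Gzmb. S100a9 was then at 0.29 ± 0.46 and Mpo at 0.94 ± 0.63 (adjusted p = 0.956 and 0.819), and Foxp3 at 1.60 ± 0.26, Ikzf2 at 1.23 ± 0.23, Pdcd1 at -0.85 ± 0.16 and Lag3 at -0.99 ± 0.17 remained past the threshold (adjusted p = 0.00190, 0.0105, 0.00946 and 0.00468). Klrg1 (1.19 ± 0.28, adjusted p = 0.0623), Igfbp4 (1.53 ± 0.46, adjusted p = 0.298) and Nr4a2 (-1.64 ± 0.39, adjusted p = 0.0717) were no longer past it. Against CD8+ Tc, 338 genes were then higher and 298 lower. Hemoglobin RNA also moved with the class. The list of 8 erythroid genes summed to 4269, 6232, 16100 and 16711 CPM (unscaled) in double-negative Tc, led by Hbb-bs, against 3951, 2599, 4996 and 4135 in CD8+ Tc and 3599, 5175, 270.1 and 4557 in CD4+ Tc, and 4 of 6 tested genes rose against CD8+ Tc and Car2 against CD4+ Tc. In cells without a Cd3 UMI the erythroid list summed to 107043, 197400, 224018 and 79292 CPM (unscaled). The part of hemoglobin RNA in the results was not tested. Of 8 B lineage markers 3 were tested, and Ighm was higher than in CD8+ Tc (1.21 ± 0.17, adjusted p = 1.00e-05), with a UMI in 29.6% of double-negative, 13.8% of CD8+ and 23.0% of CD4+ Tc and in 7.16% of cells without a Cd3 UMI. None was called against CD4+ Tc. At equal depth Cd79a had no UMI in double-negative Tc. Cd79b had one in 3 of these cells (0.906%, against 0.160% of CD8+ and 0.258% of CD4+ Tc). Ms4a1 had one in 1 cell (0.302%) and none in CD8+ or CD4+ Tc.

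**Figure D5:**
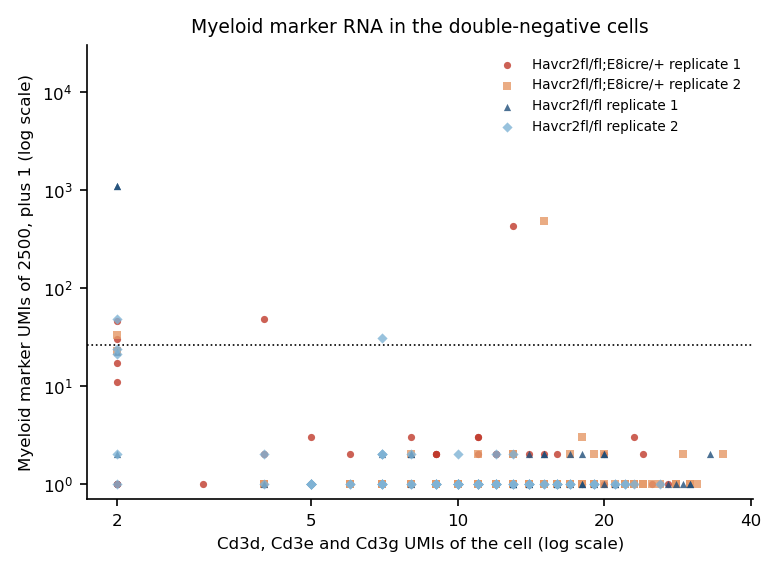
UMIs of the myeloid marker list per 2500 UMIs, plus 1 (y axis, log scale), against the sum of Cd3 UMIs (x axis, log scale) of each of the 331 double-negative Tc, colored by library. The dotted line marks 25 UMIs. Of the 10 cells on or above the line, 6 had 2 or 3 Cd3 UMIs and 7 had 20000 or more UMIs in all.

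Cells with a Trdc UMI were few among double-negative Tc and unevenly spread over the libraries. Trdc, the constant gene of the TCR δ chain on chromosome 14 (54142851 to 54148868, GRCm38, plus strand), had a UMI in 13 of 331 double-negative Tc (3.93%), against 16 of 3748 CD8+ Tc (0.427%) and 6 of 1553 CD4+ Tc (0.386%). At equal depth the shares were 3.63%, 0.374% and 0.258%, and no cell of the 4025 without a Cd3 UMI had one. Of the 13 cells, 11 came from Havcr2fl/fl;E8icre/+ replicate 2, and the other libraries held 1, 0 and 1. The upper limit that no cell of 36 allows for cells with a Trdc UMI in Havcr2fl/fl replicate 1 is 8.33%. In 10 cells there were 3 to 17 Trdc UMIs (median 9), and 9 of these 10 had a γ constant gene UMI and 6 had no Trac UMI, but all 10 had UMIs of Trbc1 or Trbc2. Of the closely similar γ constant genes, Tcrg-C2 was seen in 4.23% of double-negative, 16.4% of CD8+ and 1.67% of CD4+ Tc, and Tcrg-C2 and Trgv2 were lower than in CD8+ Tc (-2.06 ± 0.37 and -2.24 ± 0.35, adjusted p = 0.000305 and 4.03e-05). Against CD4+ Tc they differed by 1.34 ± 0.58 and 1.20 ± 0.54 and were not called (adjusted p = 0.574 and 0.594). No cell had both a Foxp3 and a Trdc UMI.

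The defining markers of NKT and NK cells had few or no UMIs, whereas other genes of these lists that are not restricted to them were detected. Zbtb16, the gene of PLZF, which directs NKT development, had a UMI in 1 double-negative cell, against 16 CD8+ and 2 CD4+ Tc, and in 111 of 4025 cells without a Cd3 UMI (2.76%), which were deeper. Trav11 and Trav11d, the variable genes of the invariant NKT receptor, had no UMI in any class, and Ncr1 (NKp46) had none in double-negative Tc, which limits the cells with such a UMI to 0.906% but not the cells that express the gene at a level too low to be captured. Klrb1c (NK1.1) was seen in 4 cells. Of the 2 tested genes of the 10 on the NKT list, Izumo1r, the folate receptor 4 gene that regulatory and other CD4+ Tc also express, was higher than in CD8+ Tc (2.21 ± 0.16, adjusted p = 1.01e-10) and Slamf1 was not called, and neither was called against CD4+ Tc. At equal depth Izumo1r was seen in 32.6% of double-negative, 8.91% of CD8+ and 29.9% of CD4+ Tc, and Slamf1 in 18.1%, 15.2% and 21.4%. Of the 3 tested genes of the 11 on the NK and ILC list, Tyrobp, an adaptor gene also of myeloid cells, was higher than in CD8+ Tc (2.39 ± 0.37, adjusted p = 3.96e-05) and in CD4+ Tc (2.60 ± 0.42, adjusted p = 0.000559). It was not called against CD4+ Tc without the cells high in myeloid RNA or lacking TCR RNA, with at least 4 Cd3 UMIs or without the cells of 20000 or more UMIs. Il1rl1, the IL-33 receptor gene, was higher than in CD8+ Tc (2.07 ± 0.48, adjusted p = 0.00484) and differed from CD4+ Tc by -0.83 ± 0.37 (adjusted p = 0.593). Both genes were seen in 4.83% of double-negative Tc, and in 14.04% and 6.34% of cells without a Cd3 UMI.

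αβ TCR genes were expressed, with differences from CD8+ Tc. Of the 12 genes on the αβ TCR list, Cd2, Cd5 and Cd6 were higher and Trbc1 and Trbc2 lower than in CD8+ Tc, and 7 were not called. Trbc1 differed by -0.46 ± 0.12 and Trbc2 by -0.72 ± 0.08 (adjusted p = 0.0153 and 2.44e-07), and Cd2, Cd5 and Cd6 by 0.42 ± 0.10, 1.36 ± 0.14 and 1.18 ± 0.16 (adjusted p = 0.00359, 9.90e-08 and 6.93e-06). Trac was at 640.3, 716, 690.0 and 713 CPM in double-negative Tc, against 626, 809.6, 712 and 691 CPM in CD8+ Tc (-0.03 ± 0.08) and 672, 774, 817 and 739 CPM in CD4+ Tc (-0.11 ± 0.09), neither past the threshold. An αβ TCR constant gene was seen in 318 double-negative Tc (96.1%), against 99.9% of both other classes. Removal of all cells with a Trdc, Zbtb16, Ncr1 or Klrb1c UMI left 349 genes higher and 309 lower than in CD8+ Tc and 34 higher and 19 lower than in CD4+ Tc.

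No TCR variable gene was common. An α or β variable gene was seen in 106 double-negative Tc (32.0%), the variable part lying far from the 3′ end that is sequenced. The most frequent were Trbv16 (9 cells, 2.72%), Trav16n and Trbv29 (6 cells each, 1.81%), Trav14-3 and Trav6-7-dv9, which shared 4 cells each (1.21%) with further genes. Trbv16 was seen in 3, 5, 1 and 0 cells of the 4 libraries, and in 1.15% of CD8+ and 4.31% of CD4+ Tc. Trav16n and Trbv29 were seen in 5.28% and 5.12% of CD8+ Tc and in 1.03% and 0.515% of CD4+ Tc. On a list of 8 genes described for double-negative Tc in autoimmunity, Ikzf2 and Cd69 of 3 tested genes were higher than in CD8+ Tc and Ikzf2 was higher than in CD4+ Tc. Il17a and Il23r did not reach the level needed for a test.

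The genotypes were compared last. Havcr2, on chromosome 11 (46454935 to 46481255, GRCm38, plus strand), had 7, 5, 1 and 3 UMIs in the unthinned double-negative sums, or 11.5, 7.87, 2.82 and 7.92 CPM before scaling, which was too few for a test between genotypes in double-negative Tc alone. In the test of the difference from the genotype effect in CD8+ Tc, it was not called (8.74 ± 2.68, edgeR adjusted p = 0.707), a fitted value that rests on a control group at 0 UMIs after thinning. In CD8+ Tc it was at 61.0, 8.03, 52.3 and 119 CPM, so that the library labelled Havcr2fl/fl;E8icre/+ replicate 1 lay between the floxed control libraries. The 3′ reads do not show whether they come from the deleted or the remaining part of the gene. Over the 4 mice Havcr2 was lower in double-negative than in CD8+ Tc (-2.39 ± 0.65, edgeR adjusted p = 0.0174), with 18.1, 15.1, 0 and 0 CPM against 62.0, 9.90, 47.4 and 127 CPM in the thinned, TMM-scaled sums that entered this test. In these sums it was lower in 3 of 4 mice, and in the unthinned sums in 4 of 4.

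Double-negative Tc made up 4.96% and 6.097% of Tc in the libraries labelled Havcr2fl/fl;E8icre/+ (5.53 ± 0.807%, SD, n = 2) and 4.65% and 6.90% in the Havcr2fl/fl libraries (5.78 ± 1.59%, SD, n = 2). The groups overlapped (exact permutation test, two-sided, p = 1.00, smallest p possible 0.3333). After thinning, the shares were 13.3% and 17.8% against 15.2% and 12.6%. Among Tc with at least 5000 UMIs they were 1.92% and 3.73% against 3.90% and 6.55%, which did not overlap (log2 ratio -0.89, exact permutation test, two-sided, p = 0.3333, the smallest possible). Of 6292 genes tested between the genotypes in double-negative Tc with edgeR, none was called (0%). At an unadjusted p under 0.05 there were 334, close to what this threshold passes without any difference. DESeq2 called none of 13945 (79 at an unadjusted p under 0.05). Foxp3 differed by 0.46 ± 0.39 (adjusted p = 0.892). When a floxed control library was left out, so that the other control was assumed to vary like the E8icre libraries, 51 (without replicate 1) and 93 genes (without replicate 2) were called.

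A test of the difference between the genotype effects in double-negative and CD8+ Tc called 3 of 8693 genes (0.0345%), with 1 effect higher in double-negative Tc (0.0115%, Malat1) and 2 lower (0.023%, Hmgb2 and Igha). None of the 3 was called on unthinned UMIs or in cells with at least 5000 UMIs. Malat1, a nuclear long noncoding RNA, was at 17047 and 22034 CPM against 12689 and 10864 CPM (unscaled) in double-negative Tc of the E8icre and the control libraries, and at 14657 and 18076 against 16613 and 12881 CPM in CD8+ Tc. Hmgb2, a chromatin protein gene of proliferating cells, was at 882 and 665 against 1322 and 1714 CPM in double-negative Tc. In CD8+ Tc it was at 1287 and 1058 against 1177 and 1446 CPM. The cell cycle list summed to 804 and 490 against 622 and 2074 CPM in double-negative Tc. Its sums in CD8+ Tc were 1745 and 1056 against 875 and 2595 CPM. Igha, the constant gene of IgA, had 0 and 3 UMIs in double-negative Tc of the E8icre libraries and 0 and 112 in those of the control libraries, so that its call rested on 1 library.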

How the data were processed

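Spleen Tc of 4 mice were profiled with 10x 3′ chemistry. The authors deposited filtered matrices of raw UMI counts per gene and cell, made per the labels with Cell Ranger 6.1.2 on mm10 (32285 genes and 1 antibody tag), with 38386626, 31449644, 17693991 and 55045903 gene UMIs in 4328, 3208, 1511 and 6737 barcodes. From these counts, cells were filtered and classed by the UMIs of 7 genes, thinned without replacement to 2500 UMIs (numpy 2.4.6), summed per library and class, and tested with edgeR 4.0.16 (R 4.3.3, quasi-likelihood, TMM, low counts filtered, Benjamini-Hochberg, threshold 0.05). The class comparisons had the mouse as a block, since the classes come from the same 4 animals. Genotypes within double-negative Tc were compared on unthinned sums, 2 libraries each. The difference of genotype effects between double-negative and CD8+ Tc was tested on thinned sums. Positions are those of GRCm38, the assembly of mm10. The lineage score was a penalized logistic regression (scikit-learn 1.9.0). Scrublet (scanpy 1.11.5) called 2, 7, 5 and 119 doublets, under 0.5% in 3 libraries, where it cannot be taken to have worked; called cells stayed in except in 1 alternative. 95% Wilson intervals and floors of 3 counts cover counting error only. The tests were checked on simulated counts with known changes, the same dispersion for all genes and no differences between mice. Such counts do not cover RNA that lies in few cells.

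The members and gene lists were chosen with earlier results of these data known. Genes named from a comparison were the 10 largest rises and the 10 largest falls past the threshold with 1 direction in all 4 mice and a mean of at least 10 CPM, beside the listed genes, Havcr2 and up to 5 TCR variable genes. Further genes were named after their values were seen (Epcam, and the genes called under an alternative). The alternatives were unthinned UMIs, DESeq2 1.42.0, its size factors, no filter, the block, deeper cells, a stricter CD3 gate, doublets, the donor tag, unconventional Tc and each mouse left out. The alternatives without cells of 20000 or more UMIs, without Foxp3 cells, without cells high in myeloid RNA or lacking TCR RNA, with another thinning seed and with CD4+ Tc of 1 Cd4 UMI were chosen after seeing the data. Results of a few genes of the lists are not reported here.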

Additional observations from a re-analysis of the deposited data

Results flagged for a closer look

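The genotype effect (Havcr2fl/fl;E8icre/+ over Havcr2fl/fl) differed between double-negative and CD8+ Tc for 3 genes by the edgeR interaction term, each with 2 libraries per genotype. For Malat1 the effect was larger by 0.55 ± 0.08 on the log2 scale in double-negative Tc (adjusted p = 0.00101). For Hmgb2 the difference was -0.84 ± 0.15 (adjusted p = 0.0177). For Igha it was -5.09 ± 0.95 (adjusted p = 0.0412), with 112 UMIs in Havcr2fl/fl replicate 2 and 0 in Havcr2fl/fl replicate 1. All 3 calls were lost on unthinned UMIs and in cells with at least 5000 UMIs.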

How the results depend on the processing

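Against CD8+ Tc, 674 genes were called, and 1827 on unthinned UMIs, 336 with no replicate block (the mouse left out of the model) and 251 in cells with at least 5000 UMIs. Leaving out each mouse gave 455 to 651. Against CD4+ Tc, 54 genes were called, and 584 on unthinned UMIs, 167 without a filter and 0 with no replicate block (386 of 8043 at an unadjusted p under 0.05). The number was 20 with at least 4 Cd3 UMIs, 22 without cells high in myeloid RNA or lacking TCR RNA and 9 against CD4+ Tc with 1 Cd4 UMI. It was 35 to 43 when each mouse was left out. Between genotypes, 0 genes were called, and 1 after thinning, 9 with at least 4 Cd3 UMIs and 7 without cells of 20000 or more UMIs. Leaving out each library gave 1 to 93, the highest without Havcr2fl/fl replicate 2, where the lone control was assumed to vary like the other group. For the difference of genotype effects 3 genes were called, and 1 on unthinned UMIs and 1 in cells with at least 5000 UMIs, neither of them among the 3, and 20 without a filter. The log2 ratio of the double-negative share between genotypes was -0.06 and turned to 0.16 after thinning, and it was -0.89 in cells with at least 5000 UMIs (exact p = 0.3333, the smallest possible). It ranged from -0.32 to 0.25 when each library was left out, and was 0.08 without Havcr2fl/fl;E8icre/+ replicate 1 and 0.25 without Havcr2fl/fl replicate 2. Among named genes, Ctsg turned to -0.66 against CD4+ Tc with at least 4 Cd3 UMIs, and Prtn3 to -0.10 without cells high in myeloid RNA or lacking TCR RNA. Of the other values of named genes, 365 kept their direction and side of the threshold and 6 lost the call against CD8+ Tc, and 309 kept it, 4 gained and 115 lost it against CD4+ Tc. Values of the same direction without an adjusted p-value were counted as kept, and genes filtered out under a setting were not counted. The genotype groups shared only replicate numbers. With these numbers as a replicate block, 0 genes were called (333 of 6292 at an unadjusted p under 0.05), and the deviations of same-numbered libraries correlated at 0.0547. Except for the changes made by fewer cells or samples, the cause was not tested.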
